A study of Homo sapiens with 12 samples.

Results

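The ATP-binding cassette (ABC) genes were taken as the protein-coding genes of the deposited count table whose GENCODE name consists of ABC, a subfamily letter from A to G and a number. The rule found 45 genes among 19629 protein-coding genes with a row, in a table of 58037 genes. There were 12 genes of subfamily A, 9 of B, 11 of C, 4 of D, 1 of E, 3 of F and 5 of G, spread over 17 chromosomes. ABC proteins named otherwise, such as the TAP peptide transporters and the chloride channel *CFTR*, were not counted as members.

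RNA was measured in HCT116 cells, an established human colorectal carcinoma line with wild-type p53, after 8 h with vehicle (DMSO), with 10 µM Nutlin-3a, with 20 nM NVP-2, or with both compounds. Nutlin-3a blocks MDM2 and so stabilizes p53, and NVP-2 inhibits the transcriptional kinase CDK9. Polyadenylated RNA was sequenced strand-specifically with single reads of 75 bases, and the labels list 3 samples for each of the 4 groups.

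The 12 columns of the count table held the same values. Each column summed to 22720718 counts, and 0 of 58037 genes differed between columns. There was therefore 1 distinct profile with no replicate, and its treatment could not be told from the table. No treatment comparison and no test between samples could be made, and the levels below describe that profile. Each level is a count, CPM (the count scaled to the library total) or RPKM (CPM divided by the length of the merged exons in kilobases), and each interval is a 95% Wilson interval that covers counting error only. Spread between cultures was not measured. A count of 3, or 0.132 CPM, was taken as the floor, and a gene with 0 counts could still lie at up to 0.169 CPM.

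The profile carried epithelial transcripts. Of 6 epithelial markers 5 had an RPKM of at least 1, with 514 for *KRT8*, 182 for *EPCAM* and 10.7 for *CDH1*, while the intestinal factor *CDX2* was at 0.813. None of 8 markers of mesenchymal, endothelial or immune cells reached 1 RPKM, the highest being *COL1A1* at 0.972, with *COL1A2* and *PTPRC* at 0 counts. With the length of its canonical transcript instead of the merged exons, *COL1A1* (199 counts) was at 1.48 RPKM and above that threshold. Of all protein-coding genes 44.6% reached 1 RPKM. Mitochondrial genes held 10.4% of all counts.

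ABC proteins share a nucleotide-binding domain that binds and hydrolyses ATP. In subfamilies A, B, C, D and G this domain drives membrane-spanning segments that move lipids, peptides, metabolites or drugs across membranes. The B and C subfamilies and *ABCG2* include the pumps known for resistance of tumour cells to chemotherapy, and in the intestine several of them return drugs and conjugates to the lumen. *ABCE1* and the ABCF proteins have the ATP-binding domains without membrane segments and act on ribosomes and translation.

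The levels of the family ran from 0 counts to 43.9 RPKM. Of 45 members, 40 had at least 1 count (88.9%), beside 75.7% of all protein-coding genes. At least 10 counts were found for 26 members (57.8%), beside 62.8% of protein-coding genes, and an RPKM of at least 1 for 20 members (44.4%), beside 44.6%. By the last measure the family was close to the background. Its median was 0.482 RPKM, and that of all protein-coding genes was 0.589 RPKM. By level, 7 members had an RPKM of at least 10, 13 lay from 1 to 10, 6 from 0.1 to 1, and 19 below 0.1. Of all protein-coding genes 83.5% lay below 9.79 RPKM, the level of *KEAP1*, and 36.8% below 0.0967 RPKM, the level of *PECAM1*. The bands at both ends were thus not far from the background. The 45 genes held 30476 counts, or 0.134% of all counts, and the 4 genes with the most counts, *ABCF2*, *ABCA2*, *ABCE1* and *ABCF1*, held 53.8% of these. The 13 genes with the most counts held over 90%.

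**Figure D1:**
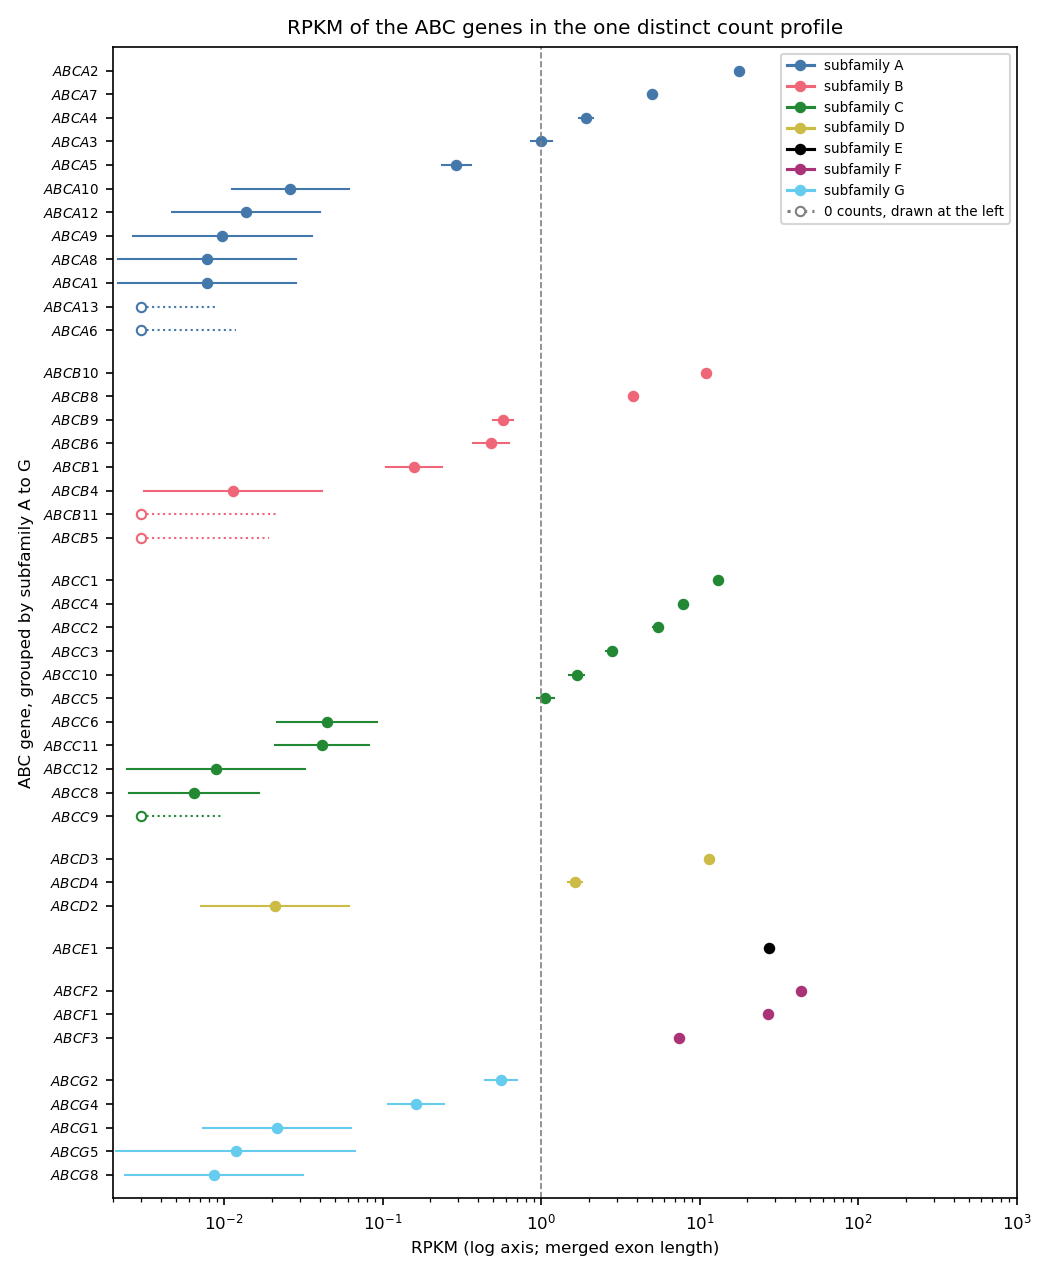
RPKM (log axis) of 43 of the 45 ABC genes, grouped by subfamily and ordered by level within it, in the single distinct profile. Points are the levels, lines are 95% Wilson counting intervals, open symbols drawn at the left edge are the 5 genes with 0 counts with dotted lines to the upper limit, and the dashed line marks 1 RPKM; all 4 genes of subfamilies E and F lie to its right and all 5 of subfamily G to its left.

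*ABCE1* and the ABCF genes had a higher median than the other subfamilies together, although 5 genes of the other subfamilies lay above *ABCF3*. *ABCE1* and the 3 ABCF genes were 4 of 45 genes, and they held 12643 counts, 41.5% of the family's counts (95% interval, 40.9 to 42.0%), and 53.2% of its summed RPKM. All 4 reached 1 RPKM, and their median was 27.1 RPKM. Of the 41 genes of subfamilies A, B, C, D and G, 16 did (39.0%), beside 44.6% of all protein-coding genes. The median of the 41 was 0.162 RPKM. These 41 include *ABCC8* and *ABCC9*, which are not known to pump.

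*ABCF2* (ENSG00000033050, chr7:151211484-151227205 in hg38) was the highest member, with 5139 counts, 226 CPM and 43.9 RPKM (42.7 to 45.1). Its RPKM exceeded that of 95.4% of protein-coding genes. *ABCE1* (ENSG00000164163, chr4:145098288-145129524), which splits terminated ribosomes into subunits, had 3895 counts, 171 CPM and 27.4 RPKM (26.6 to 28.3). *ABCF1* (ENSG00000204574, chr6:30571393-30597179), known for a role in translation initiation, had 2739 counts, 121 CPM and 26.8 RPKM (25.8 to 27.8). *ABCF3* (ENSG00000161204, chr3:184186095-184194012) was the lowest of the 4, with 870 counts, 38.3 CPM and 7.46 RPKM, still above 80.3% of protein-coding genes.

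*ABCE1* and *ABCF1* were indistinguishable at this depth, at a ratio per length of 1.02 (exact interval, 0.973 to 1.07). *ABCF2* was 1.60 times *ABCE1* (1.53 to 1.67) and *ABCF1* was 3.60 times *ABCF3* per length of merged exons. With the length of the canonical transcript instead, these 3 ratios were 1.25, 1.13 and 2.26, so that the order of the 4 genes held but the distances did not.

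Of the genes that work beside *ABCE1* and the ABCF proteins, in ribosome recycling and the GCN2 pathway, 6 of 6 had an RPKM of at least 1, beside 44.6% of all protein-coding genes, and the levels ran from 4.53 to 68.0. The release factor genes *ETF1* and *GSPT1* were at 68.0 and 27.8 RPKM. The ribosome rescue genes *HBS1L* and *PELO*, the latter of which overlaps *ITGA1* on the same strand, were at 9.86 and 4.53 RPKM. *GCN1*, whose yeast counterpart binds an ABCF protein, was at 47.0 RPKM, and the kinase gene *EIF2AK4*, which encodes GCN2, at 5.29.

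The 3 classic drug efflux pumps differed widely. *ABCC1* (ENSG00000103222, chr16:15949138-16143257), which exports glutathione conjugates and many drugs, had 2581 counts, 114 CPM and 13.0 RPKM (12.5 to 13.5), above 86.5% of protein-coding genes. *ABCG2* (ENSG00000118777, chr4:88090150-88231628), the breast cancer resistance protein, had 71 counts, 3.12 CPM and 0.558 RPKM (0.442 to 0.704), above 49.5%. *ABCB1* (ENSG00000085563, chr7:87503017-87713323), which encodes P-glycoprotein, had 23 counts, 1.01 CPM and 0.158 RPKM (0.105 to 0.237), above 39.7%.

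Per length *ABCC1* was 23.3 times *ABCG2* (exact interval, 18.4 to 29.9) and 82.5 times *ABCB1* (54.9 to 130), and *ABCG2* was 3.54 times *ABCB1* (2.18 to 5.94). No interval reached 1, and with canonical transcript lengths the ratios were 23.5, 89.8 and 3.82. These intervals cover counting error within 1 profile. The *ABCB1* count was above the floor of 3, and 1.03% of its exonic 75-base windows had a further exact copy in the genome.

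By RPKM, *ABCC1* had rank 5 in the family. The 3 genes directly above it were *ABCE1*, *ABCF1* and *ABCA2*, and the 3 below were *ABCD3* at 11.4, *ABCB10* at 11.0 and *ABCC4* at 7.80 RPKM. *ABCG2* came after *ABCC5* (1.06), *ABCA3* (1.00) and *ABCB9* (0.577) and before *ABCB6* (0.482), *ABCA5* (0.291) and *ABCG4* (0.162). Its counting interval overlapped those of its neighbours *ABCB9* and *ABCB6*. *ABCB1* lay level with *ABCG4*, whose interval overlapped its own and which had the same count of 23, and above *ABCC6*, *ABCC11* and *ABCA10*, at 0.0446, 0.0416 and 0.0262 RPKM. Parts of this order rested on the length used. With canonical transcript lengths *ABCD3* (24.3 RPKM) lay above *ABCC1* (17.5), *ABCF3* (15.7) above *ABCB10* (12.1), and *ABCB6* (0.842) above *ABCG2* (0.743).

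*ABCC1* belongs to the multidrug resistance proteins, which carry organic anions and conjugates of glutathione, glucuronate and sulfate. Of the 8 further members of this group 5 had an RPKM of at least 1 (62.5%), beside 44.6% of all protein-coding genes. *ABCC4*, which exports cyclic nucleotides and prostaglandins among other anions, had 1530 counts, 67.3 CPM and 7.80 RPKM. *ABCC2*, the apical conjugate pump of hepatocytes and enterocytes, had 969 counts, 42.6 CPM and 5.44 RPKM. *ABCC3*, its basolateral counterpart, had 607 counts, 26.7 CPM and 2.78 RPKM. *ABCC10* and *ABCC5* were at 1.68 and 1.06 RPKM. *ABCC6*, *ABCC11* and *ABCC12* had 7, 8 and 2 counts.

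*ABCC1* was 1.67 times *ABCC4* (1.56 to 1.78) and 2.39 times *ABCC2* per length. Subfamily C as a whole held 6291 counts, 20.6% of the family's counts, with a median of 1.06 RPKM. An RPKM of at least 1 was found for 6 of its 11 genes (54.5%), beside 44.6% of all protein-coding genes. *ABCC8* and *ABCC9* encode the sulfonylurea receptors, which regulate potassium channels and are not known to pump. They had 4 and 0 counts. Their channel pore genes were near no signal as well, with 0 counts for *KCNJ8* and 14 counts (0.125 RPKM) for *KCNJ11*. The ABC chloride channel *CFTR*, outside the naming rule, had 1 count.

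The enzymes that make the conjugates these pumps carry ranged from 0 counts to 271 RPKM. Of 8 genes 4 had an RPKM of at least 1, close to the 44.6% of all protein-coding genes. *GSTP1*, a glutathione transferase, was at 271 RPKM, and the glutathione synthesis genes *GCLM*, *GSS* and *GCLC* were at 17.4, 13.6 and 1.18. *GSTM1*, which overlaps *GSTM2*, was at 0.298 RPKM. *GSTA1* and the glucuronosyltransferase genes *UGT1A1* and *UGT1A6*, which share exons with other UGT1A genes, had 0 counts.

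**Figure D2:**
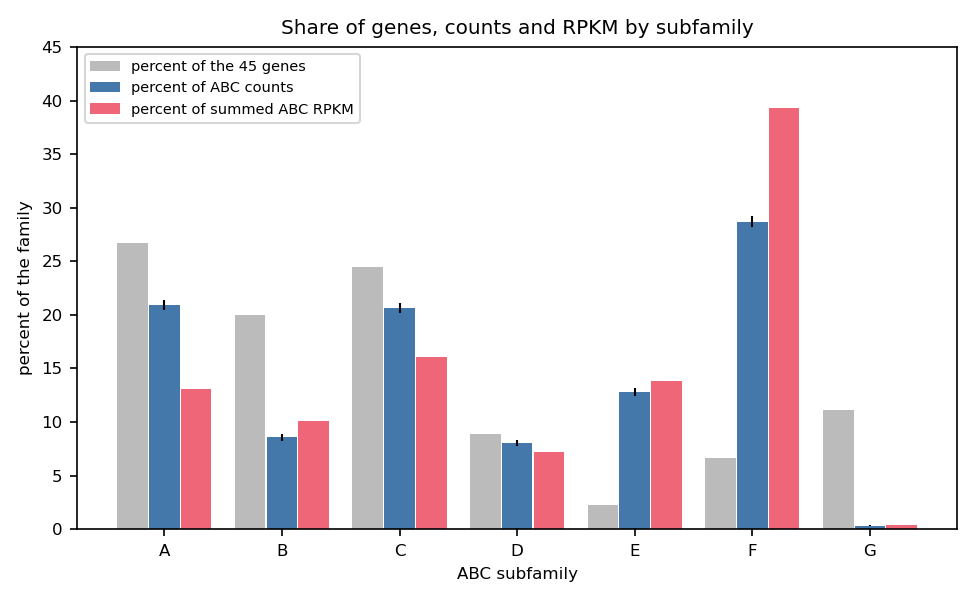
The 7 ABC subfamilies by their share of the family's genes, of its counts and of its summed RPKM, in percent, in the single distinct profile, with 95% Wilson counting intervals on the shares of counts. Subfamily F rises from 6.67% of the genes to 28.7% of the counts and 39.3% of the summed RPKM, while subfamily G falls from 11.1% of the genes to 0.328% of the counts.

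Subfamily A carries lipids and retinoids. It held 6384 counts, 20.9% of the family's counts, but its median was 0.0200 RPKM. Of its 12 genes 4 reached an RPKM of 1 (33.3%), beside 44.6% of all protein-coding genes. *ABCA2*, an endolysosomal protein known from myelin-forming cells, had 4634 counts, 204 CPM and 17.7 RPKM (17.2 to 18.3). It was the fourth member per length and the second by counts. *ABCA7*, a phospholipid exporter, had 1098 counts, 48.3 CPM and 5.04 RPKM. *ABCA4*, the retinoid flippase of photoreceptors, had 373 counts, 16.4 CPM and 1.92 RPKM. *ABCA3*, known for surfactant lipids in lung, had 178 counts, 7.83 CPM and 1.00 RPKM, with an interval of 0.867 to 1.16 that spans the threshold. Per length *ABCA2* was 3.52 times *ABCA7* and 0.661 times *ABCF1*.

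The cholesterol exporter *ABCA1* had 2 counts. With *ABCA7* it was grouped with *ABCG1* and *ABCG4*, which also export sterols. Of these 4 genes 1, *ABCA7*, reached 1 RPKM (25%), beside 44.6% of all protein-coding genes. *ABCG4* had 23 counts, 1.01 CPM and 0.162 RPKM, and *ABCG1* 3 counts, 0.132 CPM and 0.0216 RPKM. The canalicular and sterol exporters were also at or under the floor. *ABCB4* (phosphatidylcholine), *ABCB11* (bile salts), *ABCG5* and *ABCG8* (plant sterols and cholesterol) had 2, 0, 1 and 2 counts, and the 1 count of *ABCG5* came to 0.0440 CPM and 0.0118 RPKM. *ABCA12*, which loads lipids into the granules of skin cells, had 3 counts. All 5 genes of subfamily G, *ABCG2* included, lay below 1 RPKM, and together they held 100 counts, 0.328% of the family's counts.

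The nuclear receptors and redox factors that are known to control ABC genes ranged from 0 counts to 9.79 RPKM. Of 10 genes 5 had an RPKM of at least 1, close to the 44.6% of all protein-coding genes. The liver X receptor genes *NR1H3* and *NR1H2*, textbook activators of *ABCA1* and *ABCG1*, were at 2.44 and 2.38 RPKM, and their partner *RXRA* was at 2.41. *NFE2L2*, the gene of NRF2, which is known to act on several ABCC genes, was at 5.51 RPKM, and its inhibitor *KEAP1* at 9.79. This order rested on the merged exon length. By CPM they were at 82.5 and 35.0, and with canonical transcript lengths at 33.7 and 13.6 RPKM. *NFE2L2* also overlaps another gene on the same strand. *NR1I2*, which encodes the pregnane X receptor known for induction of *ABCB1*, had 0 counts, as had the bile acid receptor gene *NR1H4*, known for *ABCB11*. *NR1I3* had 4 counts, and *AHR* and *PPARA* were at 0.481 and 0.603 RPKM. Another gene on the same strand overlaps 29.5% of the exonic length of *AHR*.

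Subfamily B also holds mitochondrial members. *ABCB10*, which is linked to heme synthesis, had 1062 counts, 46.7 CPM and 11.0 RPKM. *ABCB8*, of the inner membrane, had 811 counts, 35.7 CPM and 3.82 RPKM. *ABCB6*, also found in other membranes, had 57 counts, 2.51 CPM and 0.482 RPKM.

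*ABCB8* was 7.93 times *ABCB6* per length. The whole of subfamily B held 2613 counts, 8.57% of the family's counts. The lysosomal peptide transporter *ABCB9* had 174 counts, 7.66 CPM and 0.577 RPKM (0.497 to 0.669), below the threshold, but 2.20 RPKM with the canonical length, and *ABCB5* had 0 counts. Of 8 listed genes of heme synthesis and iron-sulfur clusters 8 had an RPKM of at least 1, beside 44.6% of all protein-coding genes. Among the heme genes *CPOX* was at 96.3, *ALAS1* at 17.7, *FECH* at 4.31 and *PPOX* at 2.11. The iron-sulfur cluster genes *GLRX5*, *ISCU* and *NFS1* were at 40.6, 20.9 and 3.56.

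Subfamily D imports fatty acids into peroxisomes and, for *ABCD4*, serves cobalamin release from lysosomes. *ABCD3* had 1989 counts, 87.5 CPM and 11.4 RPKM. *ABCD4* had 331 counts, 14.6 CPM and 1.63 RPKM. *ABCD2* had 3 counts, 0.132 CPM and 0.0210 RPKM. Among genes that act with this subfamily were *PEX19* at 6.41, *PEX3* at 5.51 and *MMACHC* at 1.55 RPKM. Both *PEX19* and *PEX3* overlap another gene on the same strand. *LMBRD1*, the lysosomal partner of *ABCD4*, was at 0.410 RPKM, but at 1.13 with the canonical length.

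In the order by RPKM, 10 of the 19 pairs of neighbours among the 20 members of at least 1 RPKM had overlapping counting intervals. Among them were *ABCE1* and *ABCF1*, *ABCD3* and *ABCB10*, *ABCC4* and *ABCF3*, and *ABCC2* and *ABCA7*. The order within such pairs is not resolved even by counting error alone.

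At the low end 15 members had at most 3 counts, among them the 5 with none, *ABCA6*, *ABCA13*, *ABCB5*, *ABCB11* and *ABCC9*. *ABCA13* has the longest coding sequence of the family at 5058 codons. *ABCB5* is known from melanocytes, *ABCB11* from hepatocytes and *ABCC9* from muscle and vessels. At this depth such a gene is not detected, which is not the same as absent.

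Members that follow each other on a chromosome, with or without other genes between them, were compared by level. There were 11 pairs of consecutive members less than 1 Mb apart, of which 3 had both genes at an RPKM of at least 1, 1 had one and 7 had neither. Of all 45 members 44.4% reached 1 RPKM. That is a share of genes and not of pairs, and no share over other pairs of members was taken. The pairs are not separate, since *ABCA9*, *ABCA6* and *ABCA10* of chromosome 17 are each counted in neighbouring pairs. Whether neighbours share their level more than other members was not tested. The mixed pair was *ABCC1* and *ABCC6* on chromosome 16, which end 6307 bases apart on opposite strands at 13.0 and 0.0446 RPKM. *ABCC6* is also the member with the most ambiguous sequence, since 15.7% of its exonic 75-base windows had another exact copy, mainly in the pseudogene *ABCC6P1*, and its level is uncertain for that reason.

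On chromosome 17 *ABCA8*, *ABCA9*, *ABCA6*, *ABCA10* and *ABCA5* follow each other on one strand. They had 2, 2, 0, 5 and 87 counts, so that *ABCA5*, at 3.83 CPM and 0.291 RPKM, held most of the 96 counts of this cluster. The ends of *ABCA10* and *ABCA5* overlap. *ABCG5* and *ABCG8* on chromosome 2 start 132 bases apart in opposite directions and had 1 and 2 counts. *ABCB4* and *ABCB1* on chromosome 7 lie 22581 bases apart on one strand with 2 and 23 counts. The pairs in which both genes reached 1 RPKM were *ABCA4* with *ABCD3*, *ABCC5* with *ABCF3* and *ABCB8* with *ABCF2*, at gaps of 297240, 168155 and 163701 bases.

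**Figure D3:**
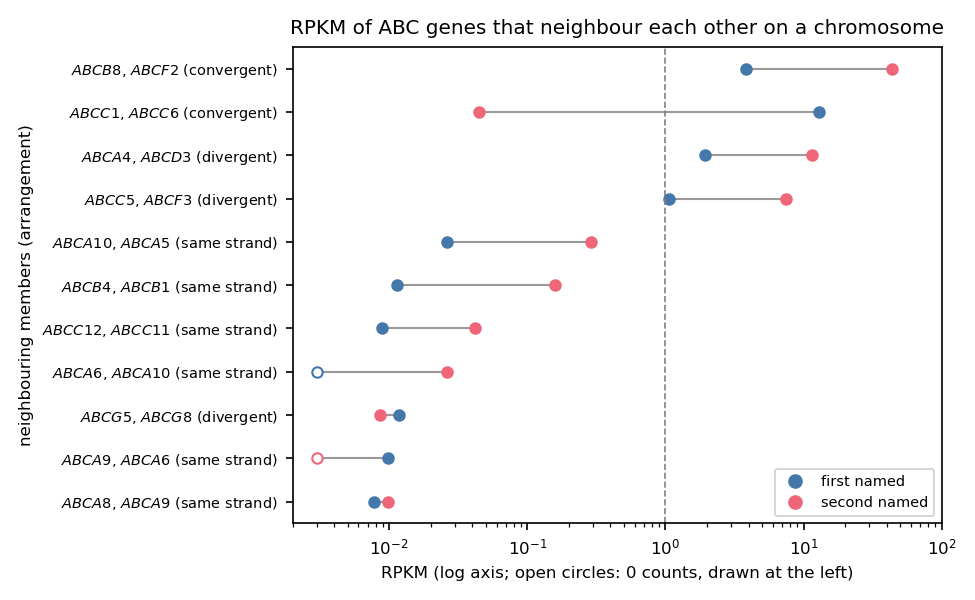
RPKM (log axis) of both genes of each of the 11 pairs of consecutive ABC genes less than 1 Mb apart, in the single distinct profile. *ABCC1* and *ABCC6* are the pair with one gene on each side of 1 RPKM, and 7 pairs have both genes below it.

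Promoter sequence was set beside these levels, since promoters of widely expressed genes are often rich in CpG dinucleotides and those of tissue-restricted genes often are not. RefSeq windows (GRCh38.p14) from 250 bases before to 50 after the start were found for 35 of the 45 members. Of the 20 members of at least 1 RPKM 15 had a window. The pump *ABCC1* had none, so only the 2 pumps below 1 RPKM are shown. The stretches below are the 100 bases before that RefSeq start. They are given for *ABCE1* and *ABCC2*, both at more than 1 RPKM, for the pumps *ABCG2* and *ABCB1*, and for *ABCA1* and *ABCB11*, at 2 and 0 counts. Each is written 5′ to 3′ on the gene's strand with CpG in capitals.

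*ABCE1*, chr4:145098211-145098310, plus strand: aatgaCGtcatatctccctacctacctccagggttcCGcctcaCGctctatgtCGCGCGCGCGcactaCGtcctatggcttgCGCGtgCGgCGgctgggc
*ABCC2*, chr10:99782540-99782639, plus strand: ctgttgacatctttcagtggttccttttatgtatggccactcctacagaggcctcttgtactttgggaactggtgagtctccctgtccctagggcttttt
*ABCG2*, chr4:88158640-88158739, minus strand: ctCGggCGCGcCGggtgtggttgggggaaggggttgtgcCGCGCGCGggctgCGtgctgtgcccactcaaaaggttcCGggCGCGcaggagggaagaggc
*ABCB1*, chr7:87600885-87600984, minus strand: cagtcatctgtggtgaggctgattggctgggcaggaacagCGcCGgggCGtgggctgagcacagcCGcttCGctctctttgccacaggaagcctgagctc
*ABCA1*, chr9:104928156-104928255, minus strand: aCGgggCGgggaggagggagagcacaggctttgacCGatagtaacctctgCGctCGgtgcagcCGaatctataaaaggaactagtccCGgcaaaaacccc
*ABCB11*, chr2:169031325-169031424, minus strand: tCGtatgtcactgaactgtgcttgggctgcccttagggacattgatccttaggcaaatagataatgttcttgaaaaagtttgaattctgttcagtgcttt

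The printed stretch of *ABCE1* held 13 CpG and that of *ABCC2* none, though both genes were expressed. *ABCG2* had 12, *ABCB1* 5, *ABCA1* 7 and *ABCB11* 1. For *ABCG2* and *ABCB1* the annotation holds further transcripts that start upstream of these windows, which were not looked at. The annotated *ABCE1* gene begins at 145098288, inside its printed stretch, so the last bases of that stretch lie within the gene.

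Over the whole 300-base window the CpG ratio, the observed number of CpG over that given by the C and G content, was above 0.6 for 21 of 35 members (60.0%), beside 69.0% of 15248 protein-coding genes. It was above 0.6 for 13 of 15 members with an RPKM of at least 1 (86.7%), for 5 of 6 members from 0.1 to 1, and for 3 of 14 members below 0.1 (21.4%). Over all protein-coding genes the shares were 91.1% for an RPKM of at least 1 and 37.3% below 0.1. The share from 0.1 to 1 was not taken over all genes, so the 5 of 6 members have no background here. The median ratio was 0.926 in the highest and 0.213 in the lowest of these member classes. Spearman's rho between ratio and RPKM was 0.658 across the 35 members and 0.513 across all 15248 genes, which share 1 library and are not independent replicates.

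The relation had exceptions in both directions, among members and among all protein-coding genes. Of the 10528 protein-coding genes above 0.6, 6549 had an RPKM of at least 1, beside 13 of 21 members. Of the 7192 protein-coding genes at 1 RPKM or more, these 6549 were above 0.6, beside 13 of 15 members. By these measures the members were near all protein-coding genes. Of the 14 members with a ratio of at most 0.6, 2 had an RPKM of at least 1. *ABCC2* had a ratio of 0.0660 with 5.44 RPKM, and *ABCB8* had 0.538 with 3.82 RPKM. Of the 21 members above 0.6, 8 lay below 1 RPKM. Among these *ABCC9* had a ratio of 0.976 with 0 counts, *ABCA1* 0.782 with 2 counts and *ABCC6* 0.749 with 7 counts, and the others were *ABCA5* (1.03), *ABCG2* (0.902), *ABCG4* (0.770), *ABCB6* (0.711) and *ABCB1* (0.698), from 0.158 to 0.558 RPKM. *ABCA2* had the highest ratio of the members at 1.20, and *ABCE1* had 1.06.

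**Figure D4:**
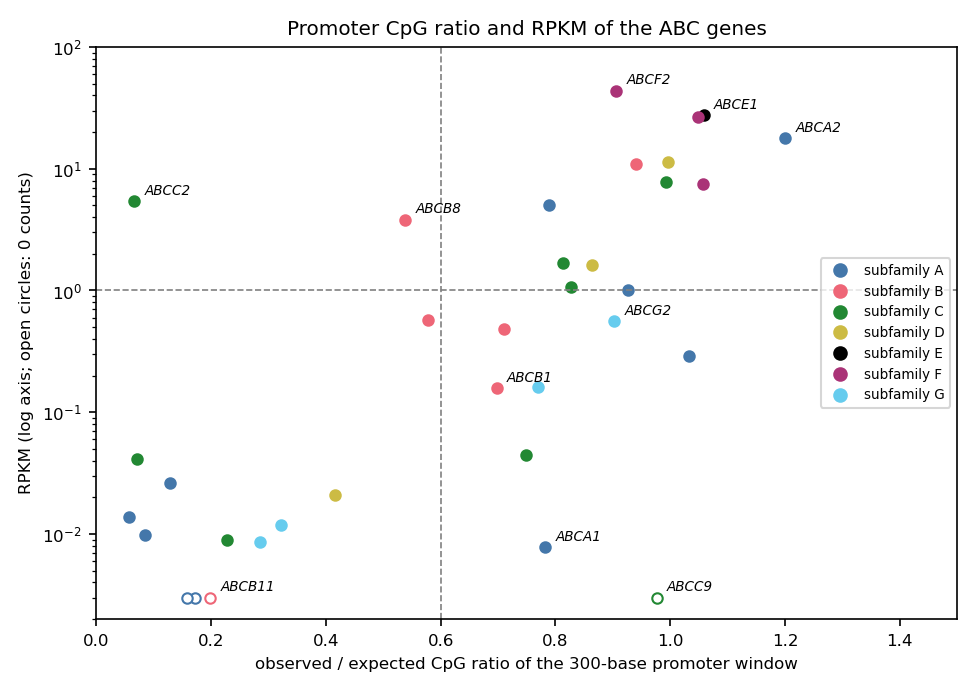
RPKM (vertical log axis) against the CpG ratio of the 300-base promoter window (horizontal axis) for the 35 ABC genes with a RefSeq window, in the single distinct profile, with dashed lines at a ratio of 0.6 and at 1 RPKM and open symbols for 0 counts. Of the 15 genes of at least 1 RPKM 13 lie above 0.6, with *ABCC2* far below it, and of the 14 genes under 0.1 RPKM 3 lie above it.

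Ambiguous sequence touched few members. Of 45 members 36 had under 1% of their exonic 75-base windows repeated exactly elsewhere in hg38, and the median was 0.0284%. After *ABCC6* came *ABCC9* at 5.97%, *ABCE1* at 4.04% and *ABCB10* at 2.67%. Exons of another gene of the table on the same strand covered part of 5 members, at most 6.99% of exonic length, for *ABCD4*.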

How the data were processed

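Polyadenylated RNA was sequenced in 12 samples of HCT116 cells given vehicle, Nutlin-3a, NVP-2 or both compounds. Per the study's methods and the labels, the authors aligned reads to the human genome (hg38) with ContextMap, which runs BWA, and deposited raw read counts per Gencode v25 gene, counted strand-specifically with featureCounts. All 12 columns were identical and were counted as 1 profile of 22720718 counts. Groups came from the sample labels, and the planned tests between treatments, with their alternatives, could not be run. Identifiers were matched to GENCODE v44 without their version. CPM used the total of all genes, and RPKM the merged exon length in GENCODE v44. A threshold of 1 RPKM followed the study's methods. Wilson 95% intervals (scipy 1.17.1) covered counting error only. Exonic 75-base windows were searched for exact copies on both strands of hg38, and promoters were taken from RefSeq (GRCh38.p14). The column check and the window search were tested on simulated data.

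The text gives counts, CPM and RPKM for *ABCE1*, each ABCF gene and the 3 efflux pumps. The same holds in subfamilies A, B, C, D and G for the 4 genes with most RPKM. Genes at 0 counts are given by count, and the 3 members on either side of each pump at least by RPKM. Some genes are not reported here by name, although the counts over the family include them. Most remaining members are given by count or RPKM, and partner genes come from written lists. Members and lists were chosen with earlier results of these data known.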

Additional observations from a re-analysis of the deposited data

How the results depend on the processing

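The number of ABC genes with an RPKM of at least 1, 20 of 45, was 26 at 1 CPM or more, 26 at 10 counts or more, 21 with canonical transcript lengths, 22 with coding lengths and 20 with mitochondrial counts left out of the total. With at least 1 count as the threshold it was 40. *ABCB9* crossed the threshold with canonical lengths, from 0.577 to 2.20 RPKM. The share of *ABCE1* and the ABCF genes, 41.5% of ABC counts, was 53.2% of summed RPKM, 50.6% of summed RPKM with canonical lengths, 57.1% with coding lengths, and 38.5% of counts with *TAP1*, *TAP2* and *CFTR* added. These follow from the quantity summed, the length used and the genes included. *ABCC1* stayed above *ABCG2*, and *ABCG2* above *ABCB1*, with canonical lengths (17.5, 0.743 and 0.194 RPKM) and without mitochondrial counts (14.5, 0.623 and 0.176 RPKM). Coding lengths were chosen after seeing the data. No paired analysis was possible because the 12 columns were identical, and for the same reason tests between treatments and fits without each replicate were not run. At this depth 15 members had at most 3 counts, and their order is not resolved.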

Other observations

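Outside the naming rule the table held 18 further rows with ABC gene names, of which 16 were pseudogenes. Counts were found on 6 of the pseudogenes. *ABCA11P*, a transcribed pseudogene, had 17 counts (0.748 CPM, 0.268 RPKM), more than 19 of the 45 members, and *ABCF2P1* had 5 counts (0.220 CPM) beside 5139 on *ABCF2*. *ABCC6P2* had 1 count. All further rows together with these held 28 counts.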
